A study of Mus musculus with 24 samples.

Results

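The 5 genes described here, Reg1, Reg3a, Reg3b, Reg3g and Reg4, encode the secreted regenerating (Reg) family lectins of the mouse gut. They were chosen by name and found by gene identifier among 45513 counted genes. RNA was sequenced from EpCAM+tdTom+ epithelial cells sorted the day after a single 3 mg dose of tamoxifen, in 4 groups of 6 libraries. Control cells came from Atoh1(WT)CreERT2 R26RtdTom mice (WT), and mutant cells from Atoh1(9S/T-A)CreERT2 R26RtdTom mice (9S/T-A), whose ATOH1 carries alanine at the 9 serine or threonine sites that precede a proline. Each genotype gave a small intestine (SI) and a colon group, with 3 female and 3 male libraries in each. All groups were adult, homozygous for a Cre placed behind the Atoh1 coding sequence, and treated alike, so there were no libraries without Cre or tamoxifen. According to the study's methods, the SI was its proximal part and villus-rich material was removed before the sort. The Cre marks cells that express Atoh1, and per the study its reporter was seen in Paneth and goblet cells but not in cells stained for chromogranin A or Dclk1 at this time.

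Reg3g had the lowest fitted fold change of the members in 9S/T-A against WT SI. All 6 mutant SI libraries were below all 6 WT SI libraries, and 2.08% of genes tested in SI lacked overlap in either direction. Its fitted level was 3.54-fold lower, with an adjusted p of 0.0618 in edgeR, just outside the threshold of 0.05 used here. Reg3b, its closest relative, overlapped between genotypes. Between tissues, Reg1 and Reg3a were below 1 CPM (the read count scaled to library size) in colon, Reg3b and Reg3g were lower in colon, and Reg4 was higher in colon.

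Reg proteins are small secreted C-type lectins. REG3G binds the peptidoglycan of Gram-positive bacteria and keeps them away from the small intestinal surface, whereas REG3B acts mainly on Gram-negative bacteria. Both genes are known to be induced in the epithelium by microbial signals and by interleukin-22 acting through the IL-22 receptor and STAT3. REG1 was first described in pancreas and is linked to regeneration. REG4 marks secretory cells at the crypt base of the colon and some enteroendocrine cells.

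Reg1, Reg3a, Reg3b and Reg3g lie together on chromosome 6 of GRCm38. Reg3b (ENSMUSG00000071356) occupies 78370885 to 78373466, Reg3a (ENSMUSG00000079516) 78380709 to 78383839 and Reg1 (ENSMUSG00000059654) 78425983 to 78428666, all on the plus strand. Reg3g (ENSMUSG00000030017) runs on the minus strand from 78468872 to 78466269. Reg4 (ENSMUSG00000027876) is alone on chromosome 3 from 98222156 to 98236748 on the plus strand. The relatives Reg2 and Reg3d, in the same cluster, had at most 7 and 11 counts in any library.

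The promoters of Reg3b and Reg3g are shown because these genes varied in step over the libraries. Each line is the 250 bases before the RefSeq start (GRCm38.p6), read 5′ to 3′ along the gene, for Reg3b chr6:78370635-78370884 on the plus strand and for Reg3g chr6:78468875-78469124 on the minus strand. Capitals mark TATAAA and TTCNNNGAA, the letters of the STAT family motif, both searched on both strands, so that TTTATA in capitals is TATAAA on the opposite strand.
Reg3b: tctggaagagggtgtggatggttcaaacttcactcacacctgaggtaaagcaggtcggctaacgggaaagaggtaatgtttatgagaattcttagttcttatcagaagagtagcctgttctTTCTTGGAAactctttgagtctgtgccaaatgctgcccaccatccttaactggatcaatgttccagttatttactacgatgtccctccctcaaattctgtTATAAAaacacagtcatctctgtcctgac
Reg3g: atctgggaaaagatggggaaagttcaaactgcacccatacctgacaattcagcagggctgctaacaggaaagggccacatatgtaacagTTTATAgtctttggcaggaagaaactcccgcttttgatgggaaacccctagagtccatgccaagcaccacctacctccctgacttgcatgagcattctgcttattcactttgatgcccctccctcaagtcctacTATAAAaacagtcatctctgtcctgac
Aligned end to end, these 2 promoters were 68.4% identical, against 44.9 to 49.5% for the 9 other pairs of members. TATAAA stood 29 bases before the start in Reg3b, 27 in Reg3g and 30 in Reg1. Reg3g also held it on the opposite strand, 161 bases before the start. On either strand it was in 12.4% of 32851 promoters of that length. TTCNNNGAA was found in Reg3b alone among the 5, 129 bases before the start, and 7.02% of all promoters held it. These matches describe letters and not binding.

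Close paralogs can exchange reads, so the coding sequences were compared to see how far the counts can be trusted. Reg3b and Reg3g were 76.0% identical over their coding bases, the highest value among the 5 members. Their most similar stretch of 50 bases, the length of a read, is printed with the mismatches in capitals and covers bases 26 to 75 of both coding sequences (GENCODE M21).
Reg3b: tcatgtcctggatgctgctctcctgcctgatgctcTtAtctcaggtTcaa
Reg3g: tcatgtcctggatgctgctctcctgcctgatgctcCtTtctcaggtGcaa
Even there the genes differed at 3 bases. No stretch of 50 bases from the transcripts of Reg3a, Reg3b, Reg3g or Reg4 was found in a transcript of another gene, and 3.65% of those of Reg1 were. The deposited counts use primary alignments, so a read with several positions was counted at 1 of them.

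Total counts were between 35967875 and 65796932 per library. The sorted cells carried the labelled identity: goblet markers summed to between 315000 and 508000 CPM in SI and 36000 to 82300 in colon. Paneth markers summed to 53200 to 86600 CPM in WT SI and 43000 to 67000 in 9S/T-A SI, and to at most 1470 in colon. Enterocyte and colonocyte markers were also present, at 2730 to 5300 CPM in WT SI and 4160 to 5880 in 9S/T-A SI, and at most 759 in colon. Stromal markers stayed at or below 18.7 CPM, with Col3a1 at 0 throughout. The leukocyte list reached 2850 CPM in SI, almost all of it Lyz2, while Ptprc was at most 9.74 CPM. Of the 10 pancreatic acinar markers, 2 to 4 had a mean of at least 1 CPM in a group, Clps made up most of their sum in SI and Prss1 was at 0 in every library.

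**Figure D1:**
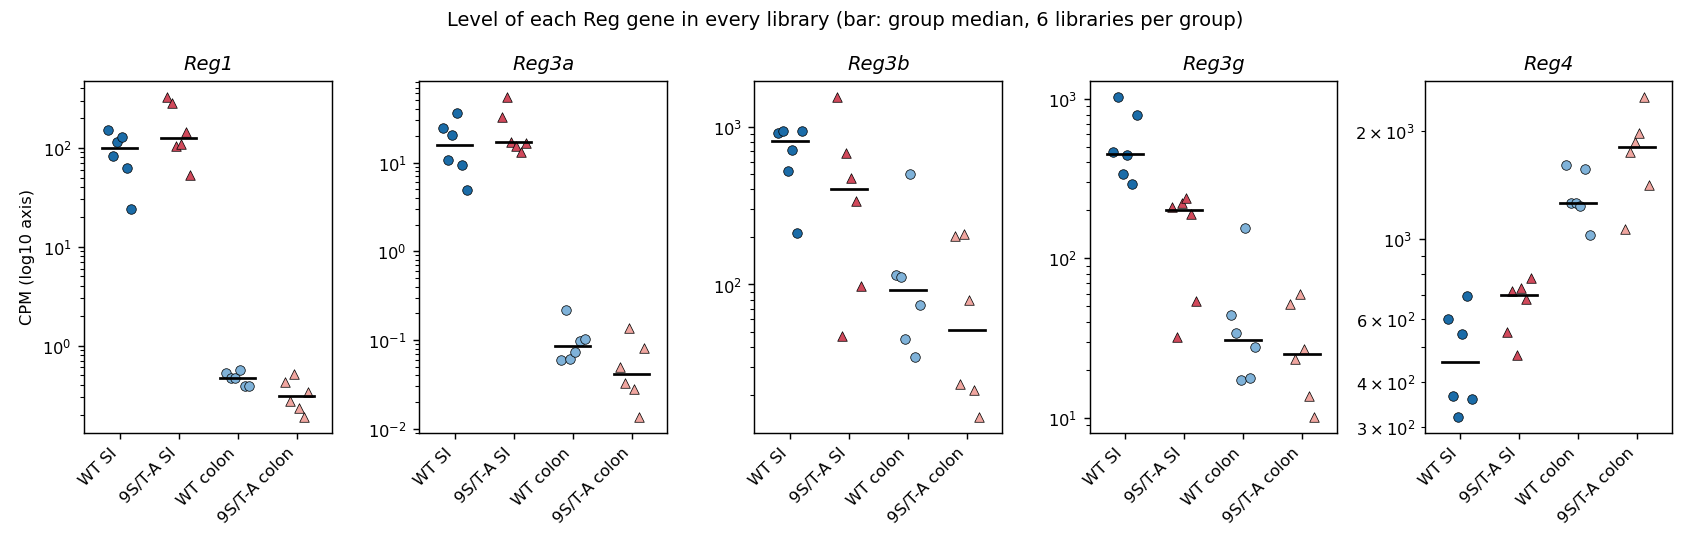
CPM of each Reg gene (log10 axis) in the 6 libraries of each group, circles for WT and triangles for 9S/T-A, with a bar at the group median. The Reg3g points of the SI groups do not overlap, and Reg1 and Reg3a sit below 1 CPM in every colon library.

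Compared per kilobase of the coding transcript, the order of the genes differed between tissues. In WT SI, Reg3b was at 902 ± 375 CPM per kb (SD, n = 6), Reg3g at 726 ± 375, Reg4 at 470 ± 151, Reg1 at 104 ± 52.1 and Reg3a at 21.4 ± 14.0. Neighbours among Reg3b, Reg3g and Reg4 differed by less than 1 SD of the higher gene. With the exon length used in the counting, 2114 bases because it includes a retained-intron transcript, Reg3g came to 265 CPM per kb. In WT colon, Reg4 led with 1301 ± 216 CPM per kb, far above Reg3b at 187 ± 224 and Reg3g at 64.2 ± 69.0. Reg1 and Reg3a were at 0.519 ± 0.0759 and 0.124 ± 0.0728 CPM per kb. All 5 genes together took 0.149 ± 0.0332% of the counts in WT SI, 0.116 ± 0.0498% in 9S/T-A SI, 0.197 ± 0.0353% in WT colon and 0.240 ± 0.0493% in 9S/T-A colon.

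The first comparison asked how the mutant ATOH1 altered these genes in SI. In the test over 16236 genes, 1.94% were called and 0 of the 5 members were. At an unadjusted p under 0.05 there were 2 members, Reg3g and Reg4, beside 15.7% of all genes tested. DESeq2 called 1, Reg3g, beside 4.46% of its genes. Reg3g in WT SI was lowest at 292 CPM, had a median of 454 and was highest at 1030. In 9S/T-A SI it was lowest at 32.2 CPM, had a median of 200 and was highest at 239. Thus every mutant library lay below every WT library, a lack of overlap that 2.08% of the genes tested in SI showed in either direction. The fitted log2 change was -1.82 (SE 0.46, 95% interval -2.81 to -0.84), with an adjusted p of 0.0618 in edgeR. Across 8 other settings the adjusted p ran from 0.0157 in DESeq2 to 0.132, and with 1 library left out from 0.053 to 0.144. With plain library totals in place of TMM it was 0.0349 and with no gene filter 0.0447. Since RNA came from pools of sorted cells, fewer cells with Reg3g and less Reg3g RNA per cell cannot be told apart.

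Reg3b, whose promoter resembles that of Reg3g, did not separate the genotypes in SI. It was lowest at 213 CPM, with a median of 811 and a highest value of 945, in WT. In 9S/T-A the lowest was 47.2, the median 405 and the highest 1544 CPM. The mutant range thus enclosed the WT range, with 2 libraries below and 1 above all WT values. The fitted log2 change was -0.41 (SE 0.62, 95% interval -1.75 to 0.92, adjusted p = 0.793). Replicate 2 was the mutant library at 1544 CPM, and without it the change was -1.11 (adjusted p = 0.281). Libraries that were low in Reg3b were low in Reg3g too: 9S/T-A SI replicates 3 and 7 were lowest in both.

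Because a ratio of 2 genes in 1 library does not depend on scaling, the Reg3b to Reg3g ratio was computed on the log2 scale with 0.5 counts added. In WT SI it was lowest at -0.46, had a median of 0.45 and was highest at 0.97. In 9S/T-A SI it was lowest at 0.55, had a median of 0.92 and was highest at 2.88. Reg3b thus exceeded Reg3g in 4 of 6 WT and 6 of 6 mutant SI libraries. The means differed by 0.96, with an exact two-sided permutation p of 0.0281 over all splits of 6 against 6, and 0.0563 after adjustment over both tissues. Leaving out 9S/T-A SI replicate 3 or WT SI replicate 2 gave differences of 1.11 and 1.09, both with an adjusted exact p of 0.026. Without 9S/T-A SI replicate 2, the library at 2.88, the difference was lowest, at 0.64. Over all libraries left out in turn the adjusted exact p lay between 0.026 and 0.113. In colon the mean ratio was 1.42 ± 0.27 in WT and 1.09 ± 0.80 in 9S/T-A (SD, n = 6), a difference of -0.33 with an exact permutation p of 0.348.

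**Figure D2:**
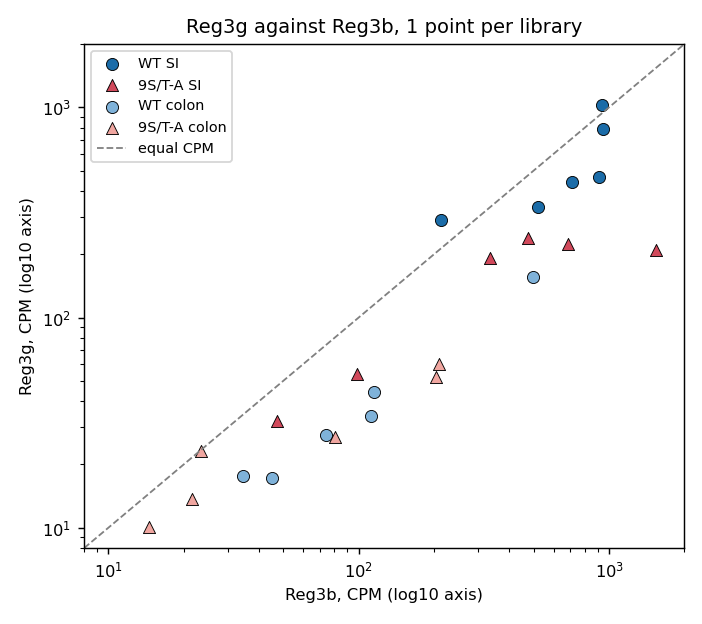
Reg3g against Reg3b in CPM, both on log10 axes, with 1 point per library and a dashed line of equal CPM. Points of all groups climb along the line, 9S/T-A SI libraries lie below it and WT SI libraries fall on both sides.

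Reg1 and Reg3a had higher mean levels in 9S/T-A SI, without passing the test. Reg1 was lowest at 24.2, had a median of 98.4 and was highest at 152 CPM in WT SI. In the mutant it was lowest at 53.3, had a median of 126 and was highest at 326 CPM. Only 2 mutant libraries, replicates 2 and 3, exceeded all WT libraries. The fitted log2 change of Reg1 was 0.84 (SE 0.44, 95% interval -0.10 to 1.79, adjusted p = 0.378). Reg3a, another member of the Reg3 group in this cluster, had a median of 15.6 CPM in WT (lowest 4.85, highest 36.0) and of 16.9 in 9S/T-A SI (lowest 13.3, highest 54.7). Its groups overlapped, with a fitted log2 change of 0.49 (SE 0.44, adjusted p = 0.635).

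In SI, Reg1 and Reg3a varied with the summed enterocyte markers. With each value centred on its group mean, log2 Reg3a correlated at r = 0.82 and Reg1 at r = 0.74 with the summed enterocyte and colonocyte list over the 12 SI libraries, which share depth within a library. Reg3b and Reg3g gave r = 0.30 and -0.02 with the same list. The enterocyte sums were themselves higher in the mutant (4160 to 5880 against 2730 to 5300 CPM), and their part in the Reg1 and Reg3a values was not tested. Reg1 and Reg3a also gave r = 0.67 and 0.60 with the pancreatic list, which in SI was nearly all Clps at 652 to 1490 CPM. The 8 acinar genes other than Clps and Cela1 summed to 21.8 CPM in 9S/T-A SI replicate 2, the library highest in Reg1, and to 1.95 to 3.77 CPM in the other SI libraries. In that library 6 of the 8 were at 1 CPM or more, against 1 elsewhere, Prss1 was at 0 and Reg2 had its 7 counts. Without it the log2 change of Reg1 was 0.55 (adjusted p = 0.493), and the part of acinar RNA in the Reg1 values was not tested. For Reg3g, Paneth marker sums were lower in the mutant (43000 to 67000 against 53200 to 86600 CPM), with 3 of 8 Paneth genes called lower. These were Mmp7, Ang4 and Itln1. Lyz1 and the listed defensins were not called, and Defa22 went the other way, at 0.90 (SE 0.28, edgeR adjusted p = 0.122). The study, with its own choice of genes, reports raised Paneth transcripts in mutant SI. The Paneth sum gave r = 0.40 with Reg3g. Tuft marker sums, 48.8 to 101 CPM in WT and 18.6 to 82.4 in the mutant, gave r = -0.51 with Reg3g, -0.75 with Reg3b and -0.69 with Reg1. Reg3g also gave r = -0.53 with the stromal list and 0.40 with the leukocyte list. With an epithelial list (Epcam, Cdh1, Krt8 and Vil1) it gave r = 0.50. Whether any of these lists had a part in the Reg3g difference was not tested.

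**Figure D3:**
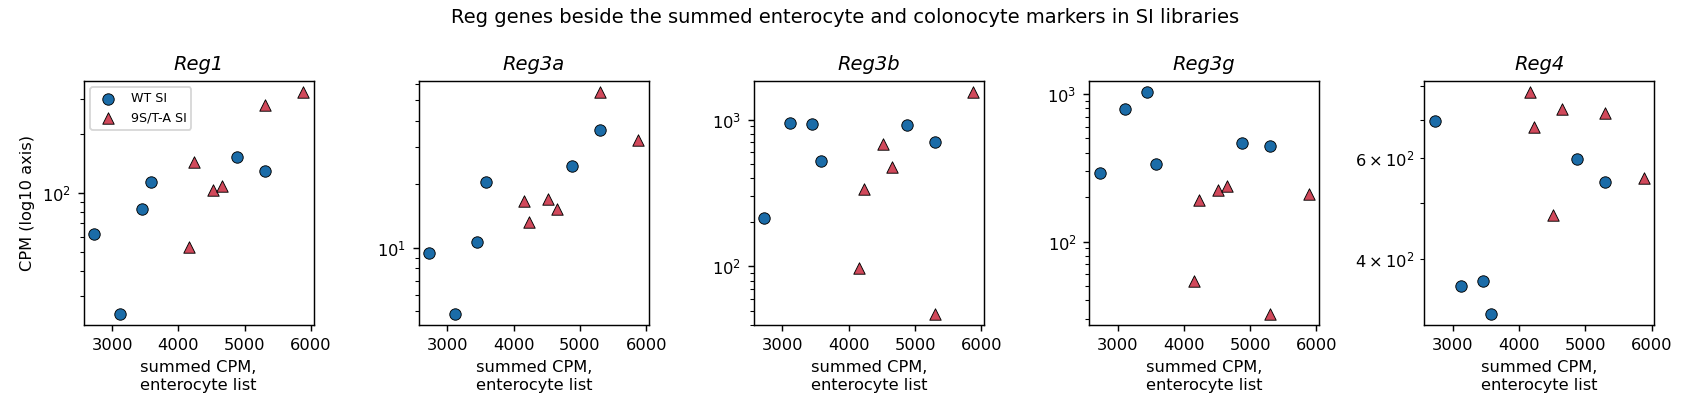
CPM of each Reg gene (log10 axis) against the summed CPM of the enterocyte and colonocyte markers in the 12 SI libraries, circles for WT and triangles for 9S/T-A. Reg1 and Reg3a climb from left to right, whereas Reg3g separates by genotype.

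Reg4, the member typical of crypt-base secretory cells, had a higher mean in the mutant in both tissues, short of the threshold. In WT SI it was lowest at 320, had a median of 455 and was highest at 696 CPM, against 477, 699 and 782 in 9S/T-A SI. All 6 mutant libraries were above the WT median and 3 above the highest WT library. The fitted log2 change was 0.45 (SE 0.19, 95% interval 0.04 to 0.86), with an edgeR p of 0.0326 and an adjusted p of 0.264. In colon, Reg4 was lowest at 1028, had a median of 1259 and was highest at 1611 CPM in WT, against 1072, 1807 and 2489 in 9S/T-A. There 5 of 6 mutant libraries were above the WT median and 4 above every WT library. The fitted log2 change of Reg4 in colon was 0.43 (SE 0.17, 95% interval 0.06 to 0.80), with an edgeR p of 0.0259 and an adjusted p of 0.464.

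In colon, the genotype comparison tested 16997 genes and called 0.318% of them, with 0 of the 4 Reg genes tested among them. At an unadjusted p under 0.05 edgeR gave 1 member, Reg4, beside 8.81% of all genes tested, and DESeq2 called 0 members and 1.13% of its genes. Reg3a, with 1 to 14 counts per colon library, fell below the filter and was not tested. Reg3b in WT colon was lowest at 34.5, had a median of 92.8 and was highest at 498 CPM. In 9S/T-A colon it was lowest at 14.5, had a median of 51.8 and was highest at 210 CPM. WT replicate 5 stood far above the other WT colon libraries, which reached 115 CPM. The fitted log2 change of Reg3b was -0.66 (SE 0.75, adjusted p = 0.968), and without that library it was 0.28 (adjusted p = 1).

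Reg3g repeated the pattern of Reg3b in colon. It was lowest at 17.3, had a median of 30.9 and was highest at 156 CPM in WT, again in replicate 5, and was lowest at 10.1, with a median of 25.1 and a highest value of 60.1 CPM, in 9S/T-A. The fitted log2 change was -0.66 (SE 0.56, 95% interval -1.86 to 0.54, adjusted p = 0.889), and without WT replicate 5 it was 0.15 (adjusted p = 1). The lower WT and mutant values overlapped. Reg1, at 0.393 to 0.564 CPM in WT and 0.190 to 0.512 in 9S/T-A colon, had a fitted log2 change of -0.48 (SE 0.24, adjusted p = 0.612) from 14 to 39 counts per library.

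The second question was how the 2 tissues differ. Colon against SI called 63.6% of the genes tested in WT and 60.9% in 9S/T-A, so a call was the usual outcome. Reg1, Reg3b and Reg3g were called lower in colon in both genotypes (30.4% of genes tested in WT and 28% in 9S/T-A were called lower) and Reg4 higher (33.1% and 32.9%). Reg3a was called lower too, but it passed the filter only through SI, so that its call was fixed in advance. The choice of scaling matters here: with plain library totals 12241 of 14144 calls in WT were higher in colon, against 5625 of 10794 with TMM, and the median of all genes moved from 0.03 to 0.74 on the log2 scale in WT and from 0.04 to 0.85 in 9S/T-A. Under that scaling the members kept their directions and calls, with Reg3b in 9S/T-A at an adjusted p that rounds to 0.05.

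Reg1 had 94.1 ± 47.0 CPM in WT SI and 0.469 ± 0.0685 in WT colon (SD, n = 6). Its log2 fold change was -7.67 (SE 0.42, adjusted p = 3.67e-10), or 204-fold lower. In 9S/T-A, Reg1 had 170 ± 109 CPM in SI and 0.331 ± 0.122 in colon, with a fitted log2 change of -9.01 (SE 0.51, adjusted p = 7.84e-10). Reg3a was at 17.7 ± 11.6 and 25.0 ± 16.2 CPM in WT and 9S/T-A SI and at 0.102 ± 0.0601 and 0.0567 ± 0.0451 CPM in the colon groups. Its log2 fold changes were -7.44 in WT and -8.76 in 9S/T-A, with a direction that the filter fixed. For Reg1 the lowest SI library was above the highest colon library, as was true of 19.6% of the genes tested in WT and 18.4% in 9S/T-A. The same held for Reg3a, but passing the filter only through SI favoured that outcome.

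Reg3b and Reg3g kept clear expression in colon. Reg3b averaged 706 ± 294 CPM in WT SI and 146 ± 175 in WT colon, and 531 ± 550 and 92.2 ± 91.8 in 9S/T-A. The fitted log2 change, without pairing, was -2.31 (SE 0.58, adjusted p = 0.00255) in WT and -2.56 (SE 0.83, adjusted p = 0.0148) in 9S/T-A. In edgeR with same-numbered SI and colon libraries as a block it was -2.82 (SE 0.343, adjusted p = 1.24e-05) and -2.52 (SE 0.315, adjusted p = 2.8e-05). Without WT colon replicate 5 the unpaired change was -3.24 in WT, and without 9S/T-A SI replicate 2 it was -1.88 (adjusted p = 0.0494) in 9S/T-A. Tissue ranges of Reg3b overlapped in both genotypes, but the colon library was the lower of its same-numbered pair in 6 of 6 cases in each. Reg3g averaged 559 ± 289 CPM in WT SI and 49.5 ± 53.2 in WT colon, with a fitted log2 change of -3.54 (SE 0.55, adjusted p = 3.78e-05), or -4.34 without WT colon replicate 5. In 9S/T-A it averaged 158 ± 90.8 and 31.0 ± 20.5 CPM, with -2.38 (SE 0.52, adjusted p = 0.00105), and the mutant tissue ranges overlapped while those of WT did not. With the block, Reg3g changed by -3.92 (SE 0.392) in WT and -2.33 (SE 0.349) in 9S/T-A.

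Reg4 ran the other way. It rose in colon from 480 ± 154 to 1328 ± 222 CPM in WT, a fitted log2 change of 1.43 (SE 0.19, adjusted p = 7.92e-06). In 9S/T-A the means were 657 ± 117 and 1763 ± 485 CPM, with 1.40 (SE 0.18, adjusted p = 1.02e-05). No SI library reached the lowest colon library of its genotype, as was true of 23.9% of the genes tested in WT and 22.7% in 9S/T-A.

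**Figure D4:**
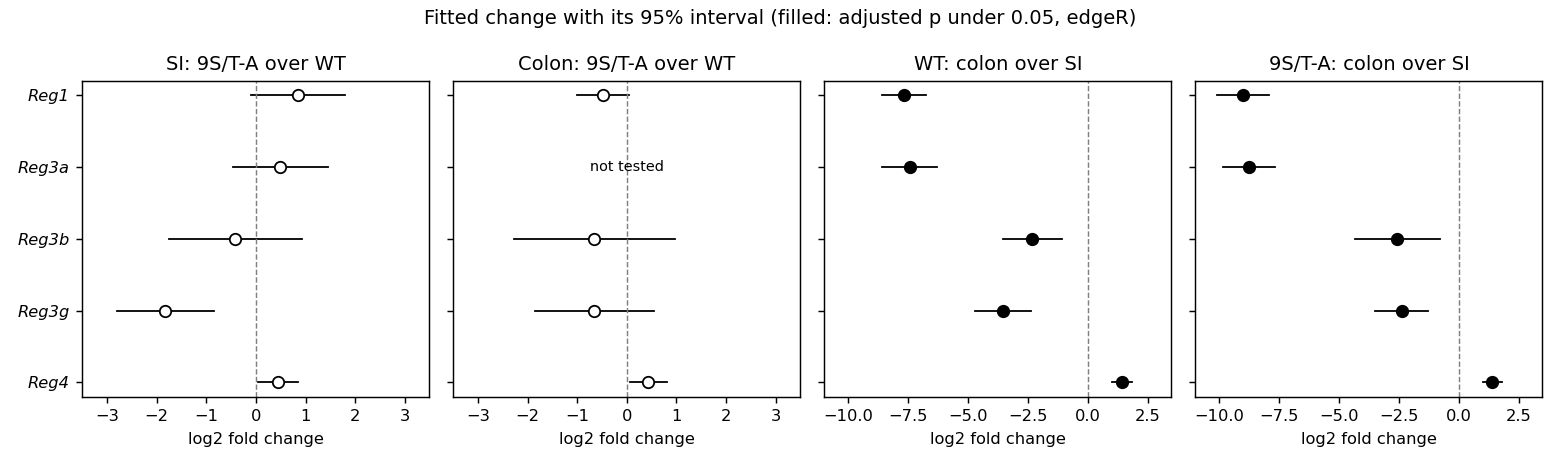
Log2 fold change of each Reg gene with its 95% interval in the 4 comparisons, filled where the adjusted p was under 0.05 in edgeR. Genotype changes are open in both tissues, with Reg3g in SI at -1.82, and all tissue changes are filled.

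Whether the genotype difference itself varied between tissues was tested over 17953 genes, of which 0.412% were called. Among the members 0 were called by edgeR, 0 had an unadjusted p under 0.05 (9.69% of all genes did) and DESeq2 called 0 (1.49% of its genes). The change in colon minus that in SI was 1.15 for Reg3g (SE 0.77, 95% interval -0.43 to 2.73, adjusted p = 0.721). With same-numbered SI and colon libraries as a replicate block, which called 1.9% of all genes, it was 1.58 for Reg3g (95% interval 0.37 to 2.79), with an edgeR p of 0.0137 and an adjusted p of 0.183. The difference between tissues in the genotype change of Reg3g thus missed the adjusted threshold in both fits. For Reg1 it was -1.35 (SE 0.67, 95% interval -2.74 to 0.04, adjusted p = 0.536), and with the block -1.31, with an edgeR p of 0.00806 and an adjusted p of 0.144. For Reg3a it was -1.32 without the block (SE 0.96, adjusted p = 0.756). Reg3b and Reg4 gave -0.25 (SE 1.05) and -0.04 (SE 0.27), values near 0 whose sign changed under other settings.

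Over the 24 libraries, with every gene centred on its group mean, Reg3b and Reg3g correlated at r = 0.921 (rho = 0.938), at 0.884 within SI and 0.954 within colon. Reg1 and Reg3a correlated at r = 0.838, but at 0.393 within colon, where both had few counts and where Reg1 correlated at 0.702 with Reg3b and 0.677 with Reg3g. Over all libraries, r of Reg1 and Reg3a with Reg3b and Reg3g was -0.324 to 0.141, and Reg4 gave -0.391 to 0.124 with the others. Reg3g was the gene most like Reg3b among 13682 genes and Reg3b the one most like Reg3g. Also among the genes nearest to Reg3b were Lgmn (r = 0.736), Dmbt1 (0.725), a secreted scavenger receptor that binds bacteria, and Gm29602 (0.707). Reg3g was followed by Gm4875 (0.727), Klhl5 (0.717), Klf6 (0.711) and Rab11fip5 (0.708).

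The genes nearest to Reg3a were Slc5a4b (r = 0.956), Slc28a1 (0.953), which transports nucleosides, Cyp2b10 (0.929), Cd36 (0.921), a fatty acid receptor, and Rdh7 (0.918). Reg1 was closest to Aadac (0.926), Dglucy (0.925), Ugt2b35 (0.921), Ugt2a3 (0.919) and Bche (0.913). By rank correlation 0 of these 5 genes for Reg1 and 1 of 5 for Reg3a were again among the nearest. Reg4 had no near partner, with Dph7 at r = 0.683, then Zcchc10 (0.646), Aldh3b1 (0.644), Zfp35 (0.64) and Gm17619 (0.632). Libraries of 1 group share depth and cell content, and these values are a description.

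Other genes of the cytokine and microbial response were then examined as a list of 24, of which 18 passed the filter in SI. In 9S/T-A SI, 5 of the 18 fell and 0 rose (0.905% of all genes tested were called lower), and the list's median log2 fold change was -0.30 beside 0.00 for all genes. Under plain library totals that median for all genes was -0.11, and 78 of 268 calls were higher in the mutant against 168 of 315 with TMM. Nos2, the inducible nitric oxide synthase, had a median of 3.76 CPM in WT SI (0.889 to 30.7) and of 0.313 in 9S/T-A SI (0.0262 to 0.871), a fitted log2 change of -4.32 (SE 0.93, adjusted p = 0.0267). Saa1, an acute-phase protein gene, went from a median of 5.09 CPM (3.02 to 13.6) to 1.01 (0.601 to 2.43), with -2.51 (SE 0.40, adjusted p = 0.00402). Counts of Saa1 are uncertain, since reads shared with its close paralogs were not checked. Duox2, the epithelial dual oxidase, ranged from 15.2 to 60.4 CPM in WT and 4.95 to 9.39 in the mutant, with -2.19 (SE 0.35, adjusted p = 0.00406). The other called genes were Pla2g5 at -1.45 and Pigr, the antibody transporter, at -0.60, the last named after its value was seen. Some genes that were not called are named outside the rule given below. Il22ra1 was at -0.03 (SE 0.13), Stat3 at -0.03 (SE 0.10) and the feedback inhibitor Socs3 at -0.10 (SE 0.24). Tifa was at -0.77 (SE 0.24, adjusted p = 0.14) and Il18 at 0.34 (SE 0.195). These are RNA levels, and signalling through the receptor was not tested.

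A list of 25 other antimicrobial genes had 22 tested in SI, with 6 lower and 1 higher (1.03% of all genes tested were called higher). Mptx2, a mucosal pentraxin, fell by 4.64 on the log2 scale (SE 0.33, adjusted p = 1.69e-06), from 769 to 1461 CPM in WT to 21.3 to 92.4 in the mutant. Counts of Mptx2 are uncertain, since reads shared with its close paralogs were not checked. Mmp7, the protease that activates defensins, was at 733 to 1251 CPM in WT and 218 to 665 in the mutant, with a fitted log2 change of -1.25 (SE 0.22, adjusted p = 0.0072). The Paneth cell products Ang4 and Itln1 changed by -1.11 and -0.98. Lgals3, a galectin named after its value was seen, was the single gene that edgeR called higher, by 0.77 (SE 0.16, adjusted p = 0.0199). DESeq2 called 13 of the 22, with 5 of them higher, beside 4.46% of its genes. The list's median was -0.30. Mmp7, Ang4 and Itln1 are also in the Paneth marker list.

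In colon edgeR called 0 of 21 and 0 of 22 genes of these lists (0.318% of all genes tested), and DESeq2 called 0 as well (1.13% of its genes). At an unadjusted p under 0.05 edgeR gave 2 and 10 of them, beside 8.81% of all genes tested. The median log2 fold change was -0.05 for the first list and 0.46 for the second, beside 0.00 for all genes. Highest in colon level within the first list were Pigr at a fitted log2 change of -0.05 and Fut2, the fucosyltransferase of the gut surface, at 0.01, and within the second Mptx1 at 0.48 and Zg16 at 0.25, none of which passed the test. The genotype by tissue test called 2 genes of the first list and 3 of the second, all higher in colon relative to SI (0.29% of all genes tested were so): Duox2 (2.38), Saa1 (2.45), Mptx2 (5.06), Mmp7 (2.1) and Mptx1 (1.16). With the replicate block 5 of 21 and 5 of 23 were called, all higher in colon relative to SI, and these 5 genes were among them. Extl3, a proposed Reg receptor, was at 26.1 ± 2.11 CPM in SI of WT mice, against 23.8 ± 1.0 for 9S/T-A, a fitted log2 change of -0.14 (SE 0.07, adjusted p = 0.364).

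**Figure D5:**
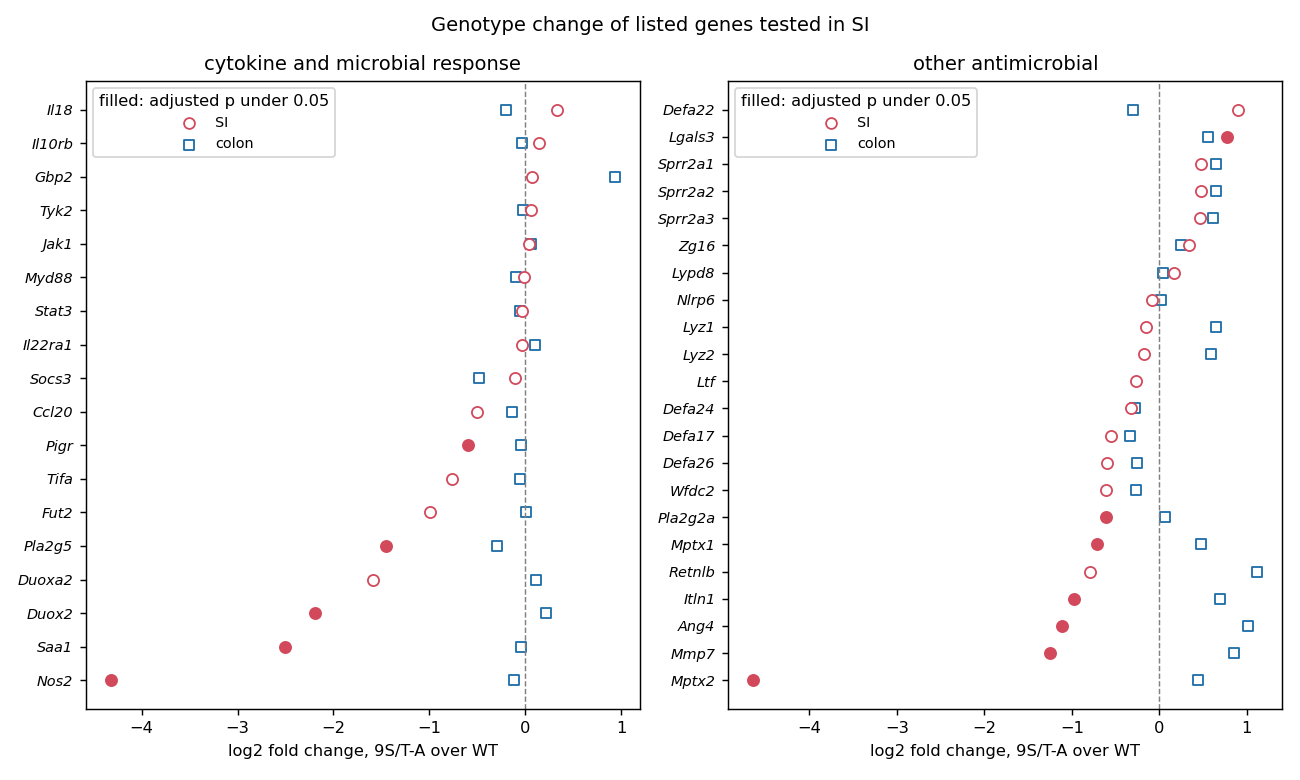
Log2 fold change of 9S/T-A over WT for the 18 cytokine and microbial response genes (left) and the 22 other antimicrobial genes (right) tested in SI, red circles for SI and blue squares for colon, filled where the adjusted p was under 0.05. Nos2 at -4.32 and Mptx2 at -4.64 lie farthest from 0 in SI, and every colon square is open.

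The Reg cluster lies 13.6 to 13.7 Mb from Atoh1, the altered gene, on the same chromosome, so linked differences between the lines were looked for. Within 20 Mb of Atoh1, edgeR called 1 of 184 genes tested in SI (0.543%), Tmem176b, which was lower, beside 1.94% of all genes. Of the 184, 40 had an unadjusted p under 0.05 in edgeR, beside 15.7% of all genes, and DESeq2 called 11, beside 4.46% of its genes. In colon edgeR called 0 of 208, beside 0.318% of all genes. Of the 208, 21 had an unadjusted p under 0.05 in edgeR, beside 8.81% of all genes, and DESeq2 called 2, beside 1.13% of its genes. Over all of chromosome 6 the share called was 1.38% in SI and 0.778% in colon. Atoh1 itself, which is present in both lines, had 92.3 ± 15.5 CPM in SI of WT mice, against 75.0 ± 11 for 9S/T-A, and 103 ± 15.7 against 85.9 ± 13.7 in colon.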

How the data were processed

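The authors aligned stranded reads to GRCm38.p3 with TopHat2 2.1.1 and used featureCounts (Subread 1.5.2) to make the deposited counts, whole reads per Ensembl gene that were not normalized, per the file headers and the submitters' processing notes, which also name DESeq2 1.14.1. Reads were counted by strand over exons, from primary alignments. Symbols came from GENCODE M21, which named 98.15% of the genes.

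After filterByExpr, edgeR 4.0.16 (R 4.3.3, TMM scaling, quasi-likelihood F test, two-sided) compared groups within each tissue, within each genotype and, for genotype by tissue, over all 24 libraries. P-values were adjusted by Benjamini-Hochberg over the genes of a fit, called under 0.05, and standard errors come from the F statistic. Levels are TMM-scaled CPM over the 24 libraries. On simulated data with 200 genes changed 2-fold, 94.5% were recovered in SI, with 9 false calls, 91% in colon and 84.5% for genotype by tissue. The simulation used the spread typical of a gene's level and not that of each member, so these shares do not apply to the members. Log2 ratios were compared by an exact permutation test (SciPy).

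Members and lists were chosen with earlier results of these data known. Named genes are the 5 members, the 5 genes with the highest Pearson correlation to each (centred log2(CPM + 1)), and, per list and comparison, up to 4 called genes with the largest change or, with none called, the 2 with the highest CPM. One gene near Reg3b is not reported here. Alternatives were DESeq2 1.42.0, other scalings and filters, sex, the replicate number as a block, 1 fit of all libraries, and leaving out each library.

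The study's design text says that SI and colon came from each mouse, and same-numbered SI and colon libraries deviated together (r from 0.187 to 0.594 in WT and from 0.187 to 0.673 in 9S/T-A, 6 pairs each), so the tissue numbers pair. That text speaks of 6 mice, whereas genotype and number make 12 combinations, so the number of animals behind each group of 6 is unclear. Labels name separate samples but tie none to a single animal, so p-values measure the spread between libraries. Of 60 same-group pairs, 0 were identical. Counting intervals are not given, and the totals limit counting error only.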

Additional observations from a re-analysis of the deposited data

Results flagged for a closer look

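In WT colon, replicate 5 stood apart from the other 5 libraries in both Reg3b, at 498 CPM against 34.5 to 115, and Reg3g, at 156 CPM against 17.3 to 44.3. Its gap to the next library took 0.826 and 0.805 of the group's range. Reg3a was highest in WT colon replicate 3, at 0.219 CPM against 0.0599 to 0.102 in the others, a value of 14 counts. These were 3 of 24 sets of 6 values examined for a library far from the rest. Chance alone gives about 1.2 if values are normally distributed. The gene levels were examined as CPM without logs, and normality was not tested, so the 3 cannot be read as an excess over chance. Reg3b and Reg3g are also not independent.

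Of the other antimicrobial and response genes named, 5 had a genotype difference that varied between tissues in the test of the difference itself (edgeR, over 17953 genes). Colon minus SI, the log2 difference was 2.38 for Duox2 (adjusted p = 0.00186), 2.45 for Saa1 (adjusted p = 0.0462), 2.1 for Mmp7 (adjusted p = 0.0318), 1.16 for Mptx1 (adjusted p = 0.0305) and 5.06 for Mptx2 (adjusted p = 3.38e-08). Reads shared with close paralogs were not checked for Saa1, Mptx1 or Mptx2.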

How the results depend on the processing

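The tissue calls of Reg1, Reg3b, Reg3g and Reg4 held under every setting run in both genotypes, as did that of Reg3a, which its filter fixed. In SI, Reg3g passed the threshold with DESeq2 (log2 fold change -1.82), with plain library totals (-1.95) and with no gene filter (-1.82), where 1 member was called instead of 0. The cause was not tested. Whole-series counts moved with DESeq2 from 315 to 788 calls in SI, from 54 to 238 in colon and from 74 to 258 for genotype by tissue. They moved to 520 in SI and 103 in colon with all 24 libraries in 1 fit, to 90 in colon with no gene filter, and with sex as a covariate to 89 in colon. DESeq2 called 13 other antimicrobial genes in SI, 5 of them higher, against 7 with 1 higher. It called 6 response genes for genotype by tissue against 2, and 11 genes within 20 Mb of Atoh1 in SI against 1. With 1 library left out, calls over all genes ran from 188 (without WT SI replicate 3) to 550 (without 9S/T-A SI replicate 2) in SI, from 30 (without WT colon replicate 5) to 72 in colon and from 50 to 112 for genotype by tissue. An adjusted p that DESeq2 gave as NA was kept as NA.

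Genotype by tissue values near 0 changed sign: Reg4 (main -0.04) was 0.03 with plain library totals, and Reg3b (main -0.25) was 0.04 with sex as a covariate. With 1 library left out, Reg4 ran from -0.18 to 0.07 and was above 0 in 10 of 24 cases. Reg3b ran from -0.68 to 0.69 and was above 0 without 9S/T-A SI replicate 2 (0.44) or WT colon replicate 5 (0.69). In colon, Reg3b ran from -1.08 to 0.28 and Reg3g from -0.95 to 0.15, above 0 without WT colon replicate 5 alone. The SI difference of the Reg3b to Reg3g ratio ran from 0.64 to 1.11. Within 10 Mb of Atoh1, 0 genes were called in SI in place of 1 within 20 Mb. By Spearman in place of Pearson correlation, 0 of the 5 genes nearest to Reg1 were shared, 1 for Reg3a, 2 for Reg3b and 3 each for Reg3g and Reg4.

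Between genotypes, same-numbered libraries, which share sex, were not taken as pairs (r between -0.113 and 0.726 in SI, and between 0.0188 and 0.867 in colon). Apart from the lowest, the colon values lay within or above the range of r between tissues. Whether a number marks a batch shared by both genotypes was not tested. With the replicate block, 0 members were called, the adjusted p of Reg3g in SI was 0.132, Reg3b in SI was -0.87, and Reg3b for genotype by tissue was 0.30, while calls over all genes went from 315 to 477 in SI, from 54 to 385 in colon and from 74 to 342 for genotype by tissue. In SI, 1 of 6 libraries correlated best with its own number and in colon 3 of 6. Of 681 values under other settings, 650 were rated the same. For a fold change or ratio, that meant the same direction and side of the threshold, or an adjusted p of NA. For a count it meant an equal or close number. Reg1 and Reg3a in colon rest on few counts.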
